A study of Mus musculus with 7 samples.

Results

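This account covers 10 genes of the class 3 semaphorin pathway in the outflow tract (OFT) of the mouse embryo: the secreted ligands *Sema3a*, *Sema3c*, *Sema3d*, *Sema3e* and *Sema3f*, and the receptors *Nrp1*, *Nrp2*, *Plxna2*, *Plxna4* and *Plxnd1*. They were chosen by name as guidance cues and receptors for cardiac neural crest, and 10 of 10 were found among the 14732 genes listed. The study asked what the loss of 1 functional copy of *Gata6*, which encodes a zinc finger transcription factor, changes in this tissue. RNA was sequenced from 3 control pools (genotype label WT; replicates 3, 4 and 5) and 4 *Gata6STOP/+* pools (replicates 1, 3, 4 and 5) of OFT, the vessel that joins the embryonic ventricles to the aortic sac. All embryos were at embryonic day (E) 11.5, and a pool held 4 pairs of OFT per the series text, which counts 3 pools per genotype where the labels give 4 for *Gata6STOP/+*.

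The STOP allele was made with CRISPR-Cas9 in exon 2 of *Gata6*, where small insertions and deletions led to a frameshift and a premature stop codon. It is a germline allele of 1 selected founder, bred to C57BL/6, so that every cell of the embryo carries it and no Cre driver is involved. The study's resource list also names a *Mib1* mutant line as a background, whereas the labels of these pools give no *Mib1* allele. Embryo sex is not given in the sources used here.

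Class 3 semaphorins are secreted proteins that steer migrating cells and axons. Most bind neuropilins (NRP1 and NRP2), which have a short cytoplasmic tail and signal through plexins, large transmembrane proteins that act on small GTPases and the cytoskeleton. SEMA3E differs in binding plexin D1 directly. In the OFT, SEMA3C made by the myocardium and other second heart field derivatives guides neural crest cells that carry plexin A2 and neuropilins into the cushions, and *Sema3c* and *Plxna2* have been described as genes that GATA6 acts on. Neuropilins are also co-receptors of vascular endothelial growth factors (VEGFs).

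For *Sema3c*, the sequence behind the study's in situ hybridization is shown because it marks which part of the gene that other readout reads. These primers were designed by the authors to copy the probe template, and their exact matches were found in the coding part of transcript Sema3c-201, from position 1114 to 1870 of its 5491 bases.
Sema3c forward primer: gggagtggagcgttcagccc
Sema3c reverse primer: aggcccctcctgggcaagtt
The 757 bases between the outer ends of the primers span exons 5 to 12 of 18, at chr5:17662983-17694658 of the assembly GRCm38. Among the transcripts of the 10 genes, 1 holds both primers.

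The 10 genes lie on 5 chromosomes. *Sema3d*, *Sema3a*, *Sema3e* and *Sema3c* follow each other on the plus strand of chromosome 5, within 5.35 Mb from 12383385 to 17730268 (GRCm38). *Sema3f* lies on chromosome 9, *Nrp1* on chromosome 8, *Nrp2* and *Plxna2* on chromosome 1, and *Plxna4* and *Plxnd1* on chromosome 6. Of 19 annotated genes that overlap one of the 10, 7 on the opposite strand, 0 are listed in the deposited table.

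The sequence before the start of transcription was taken from RefSeq (GRCm38.p6) for the 8 genes with an entry, which leaves out *Sema3f* and *Plxna4*. Windows of 250 bases before the start were searched on both strands for the word AGATAA, the word AGATAG, the word TGATAA or the word TGATAG, forms of the motif that GATA factors bind. They share the letters GATA, and 1 stretch can match only 1 of them. A word was found in 2 of the 8 windows, TGATAA at 54 bases before the start of *Plxna2* and CTATCT, the reverse of AGATAG on the other strand, at 179 bases before that of *Sema3a*. Of all 32851 windows in the RefSeq table, 26.5% held one. The windows of *Nrp2* and *Sema3a* are printed because the values of these genes stood farthest apart between genotypes, with the word found in capitals.
Nrp2, chr1:62703067-62703284, plus strand: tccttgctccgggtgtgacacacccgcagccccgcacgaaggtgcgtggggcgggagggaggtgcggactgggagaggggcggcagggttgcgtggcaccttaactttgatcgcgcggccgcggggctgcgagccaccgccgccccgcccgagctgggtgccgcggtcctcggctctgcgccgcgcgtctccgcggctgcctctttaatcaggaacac
Sema3a, chr5:13396534-13396783, plus strand: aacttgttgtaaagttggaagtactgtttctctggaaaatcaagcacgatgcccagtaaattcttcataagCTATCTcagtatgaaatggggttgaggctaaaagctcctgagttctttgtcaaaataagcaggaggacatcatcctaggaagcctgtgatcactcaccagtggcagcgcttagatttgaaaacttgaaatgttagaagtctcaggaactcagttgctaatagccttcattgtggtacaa
The *Nrp2* window is shown up to its first annotated exon. With 72.4% G and C over its 250 bases it is far richer in these bases than that of *Sema3a* (40.8%), and the median over all windows is 52.4%. The RefSeq starts of *Sema3a*, *Plxna2*, *Sema3c*, *Nrp1* and *Nrp2* used here lie inside the genes as Ensembl draws them. These genes begin at 13125414, 194618218, 17574281, 128358604 and 62703285. Annotated exons overlap the windows of *Plxna2* and *Sema3c* and the end of that of *Nrp2*. No readout of factor binding was used here, and a word is a description of these letters only.

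Reads assigned to the listed genes numbered 17783655 to 29035529 per control library and 24736761 to 34467710 per *Gata6STOP/+* library. Expression is given as CPM, reads scaled to the size of each library as the authors adjusted it. *Gata6* was measured at 286±28.9 CPM (mean±s.d.) in controls (n=3) and 227±28.7 CPM in *Gata6STOP/+* pools (n=4), with overlapping groups (log2 fold change −0.34, limma adjusted *P*=0.389), and a count of all *Gata6* reads does not separate the STOP allele from the other. The study itself reported *Gata6* as lower past its adjusted threshold in edgeR, at a log2 fold change of −0.42. The 8 myocardial markers summed to between 13779.6 and 18464 CPM over the 7 pools, and 5 of 7 pharyngeal epithelial markers were not listed. The second heart field list had 5 of 6 markers listed, at 368 to 398 CPM in controls and 389 to 441 CPM in *Gata6STOP/+* pools.

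The *Gata6STOP/+* mean was between 90.8 and 120.5% of the control mean for 8 of the 10 genes. *Nrp2*, a neuropilin, was at 131% and *Sema3a*, a repellent ligand, at 73.9%. In the limma fit of all genes, 0 of 10 passed an adjusted *P* of 0.05, against 0% of all genes. The smallest adjusted *P* of any gene was 0.0970. At an unadjusted *P* under 0.05 stood 2 of 10 (*Nrp2* higher and *Sema3a* lower), against 8.06% of all genes (4.17% higher and 3.88% lower). EdgeR's quasi-likelihood test on the recovered reads called 0 of 10 (0% of all genes), edgeR's likelihood ratio test called 1 (*Nrp2*, against 0.713% of all genes) and DESeq2 called 1 (*Nrp2*, against 0.597%). The study itself named *Sema3a* and *Nrp2* under chemotaxis, a category it described as depleted among genes past its adjusted threshold in edgeR. Its main text gives no fold change for either gene. The pools of both genotypes did not overlap for 1 of 10 (*Nrp2*, higher), against 8.47% of all genes and 4.31% in that direction. Log2 fold changes were positive for 7 and negative for 3, with a median of 0.06, against a median of −0.00073 over all genes. These *P*-values measure the spread between pools only, and in bulk tissue fewer cells of a type and less RNA per cell cannot be told apart.

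**Figure D1:**
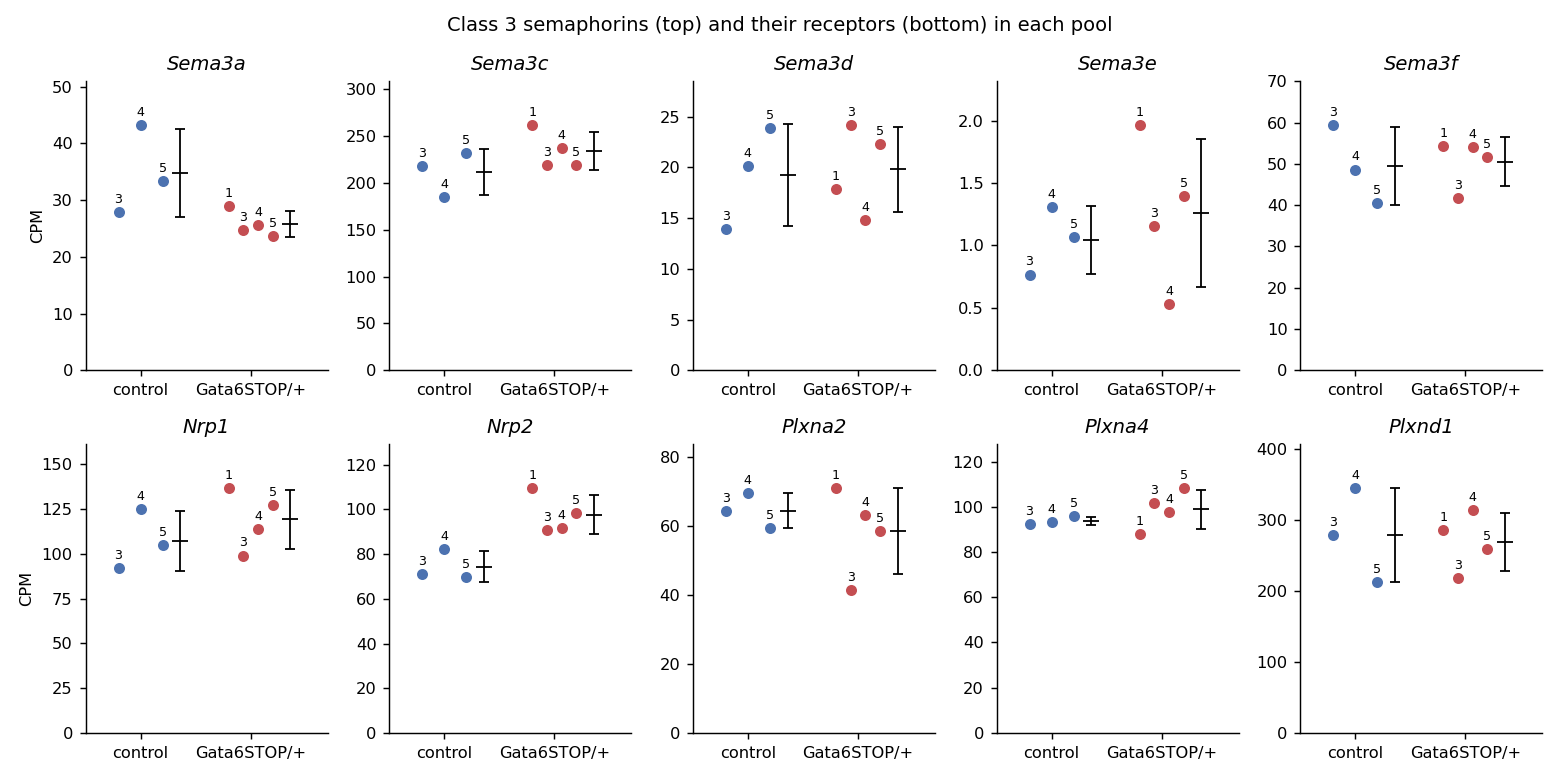
Level of each of the 10 genes in CPM (y axis, linear from 0) in the 3 control pools (blue) and the 4 *Gata6STOP/+* pools (red), with replicate numbers beside the points and mean±s.d. as a bar at the right of each group. *Nrp2* has all red points above the blue ones, whereas in the other 9 panels the groups overlap.

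*Sema3c* encodes the ligand most closely tied to OFT septation. Its level was 218, 185 and 232 CPM in control replicates 3, 4 and 5, and 262, 219, 237 and 219.7 CPM in *Gata6STOP/+* replicates 1, 3, 4 and 5. Control replicates 3 and 4 lay below every *Gata6STOP/+* pool, and control replicate 5 lay above 2 of them. The means were 212±24.2 and 234±20.2 CPM, a log2 fold change of 0.15 (standard error, s.e., 0.089; limma adjusted *P*=0.731). The 95% interval of the fold ran from 0.967 to 1.27. By in situ hybridization, the study reported *Sema3c* staining as markedly reduced in *Gata6STOP/+* OFT sections, from embryos older than these pools. Stage and method thus differ from those here, and the difference in direction was not tested. Leaving out 1 pool gave log2 fold changes from 0.05 (without control replicate 4) to 0.22 (without control replicate 5), with 0.09 without *Gata6STOP/+* replicate 1. Since 4149 to 7555 reads stood behind each value, counting error was 1.47% in controls, well under the observed coefficient of variation of 11.4%.

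*Sema3a* encodes the classical repellent of axons, which acts through NRP1 and A-type plexins. It was measured at 27.9, 43.2 and 33.4 CPM in the control pools and at 29.0, 24.7, 25.7 and 23.8 CPM in the *Gata6STOP/+* pools, in the same order of replicates. The highest value of all was that of control replicate 4, and the groups overlapped through 1 *Gata6STOP/+* pool, replicate 1, which lay above control replicate 3. The means were 34.9±7.76 and 25.8±2.27 CPM (log2 fold change −0.41, s.e. 0.130, 95% interval −0.70 to −0.12; limma unadjusted *P*=0.00943, adjusted *P*=0.433). This fold change stood at percentile 2.37 of all genes. Without control replicate 4 it was −0.24, and the size of the difference thus depended on that pool.

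Markers of neural crest and Schwann precursors were also lower in sum in the *Gata6STOP/+* pools. The 7 markers listed (the rest of that list was not analysed here) summed to between 203 and 241 CPM in controls and between 166 and 208 CPM in *Gata6STOP/+* pools. The control pool with the most *Sema3a*, replicate 4, was not the one with the highest sum, which was replicate 3. *Sox10*, the defining marker of these cells, was between 2.35 and 5.32 CPM in controls and between 2.49 and 2.89 CPM in *Gata6STOP/+* pools, and none of the 7 was at 0 in any pool. The 8 neuronal markers summed to 53.5 to 76.3 CPM in controls and 59.6 to 70.2 CPM in *Gata6STOP/+* pools. The part of these cells in the *Sema3a* values was not tested.

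*Sema3f* encodes a ligand that prefers NRP2. It had 59.4, 48.6 and 40.5 CPM in controls and 54.4, 41.8, 54.1 and 51.7 CPM in *Gata6STOP/+* pools, and both the highest and the lowest of the 7 pools were controls. The log2 fold change was 0.04 (s.e. 0.127, 95% interval −0.24 to 0.32; limma adjusted *P*=0.960). *Sema3d*, a ligand known from endothelial and venous patterning, had 13.9, 20.1 and 23.9 CPM in controls and 17.9, 24.2, 14.8 and 22.3 CPM in *Gata6STOP/+* pools. Its values were scattered alike in both genotypes, with means of 19.3±5.03 and 19.8±4.24 CPM and a log2 fold change of 0.04 (95% interval −0.38 to 0.47; limma adjusted *P*=0.972).

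*Sema3e*, whose product binds plexin D1 without a neuropilin, was close to the minimum level of 1 CPM that the authors set. It had 0.767, 1.31 and 1.06 CPM in controls and 1.96, 1.16, 0.529 and 1.40 CPM in *Gata6STOP/+* pools, on 13 to 56 reads per pool. Both the highest and the lowest pool were *Gata6STOP/+*. Counting error alone amounted to 21.7% in controls and 19.2% in *Gata6STOP/+* pools, and the observed coefficient of variation of the latter was 47.1%. The 95% interval of its log2 fold change ran from −0.50 to 0.77 (limma adjusted *P*=0.932).

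Among the receptors, *Nrp2* stood apart from the rest. It encodes the neuropilin that SEMA3F and SEMA3C bind and that also partners with VEGF receptors. Its level was 71.2, 82.5 and 69.6 CPM in control replicates 3, 4 and 5, against 109.7, 90.7, 91.8 and 98.4 CPM in *Gata6STOP/+* replicates 1, 3, 4 and 5. Every *Gata6STOP/+* pool lay above every control pool, with *Gata6STOP/+* replicate 1 the highest. The means were 74.4±7.02 and 97.6±8.71 CPM, a fold of 1.31 (95% interval 1.15 to 1.49) and a log2 fold change of 0.39 (s.e. 0.083; limma unadjusted *P*=0.000719, adjusted *P*=0.215). Its unadjusted *P* ranked 46 of the 14732 genes, and its fold change stood at percentile 97.6. Whether *Nrp2* passed the threshold depended on the test and the model: the adjusted *P* was 0.0102 by edgeR's likelihood ratio test and 0.0102 by DESeq2, while neither limma nor edgeR's quasi-likelihood test called it. With a block for replicate number, the likelihood ratio test gave an adjusted *P* of 0.0529. Leaving out each pool in turn gave log2 fold changes between 0.33 and 0.47.

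*Nrp1*, the co-receptor of SEMA3A and of VEGF-A, whose loss disturbs OFT septation, had 91.8, 125 and 105 CPM in controls and 137, 99.0, 114 and 127 CPM in *Gata6STOP/+* pools. The groups overlapped widely, and replicate 1 was again the highest *Gata6STOP/+* pool. The means were 107±16.8 and 119±16.4 CPM (log2 fold change 0.15, s.e. 0.120, 95% interval −0.11 to 0.42; limma adjusted *P*=0.790). The log2 fold change was 0.05 without control replicate 3, 0.08 without *Gata6STOP/+* replicate 1, 0.24 without *Gata6STOP/+* replicate 3 and 0.27 without control replicate 4.

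*Plxna2*, the plexin of cardiac neural crest, had 64.4, 69.4 and 59.5 CPM in controls and 71.0, 41.6, 63.1 and 58.5 CPM in *Gata6STOP/+* pools. A single pool, *Gata6STOP/+* replicate 3, was far below the others, and the remaining 6 overlapped. Its log2 fold change of −0.16 (s.e. 0.147, 95% interval −0.49 to 0.16; limma adjusted *P*=0.817) became −0.01 without that pool and −0.26 without *Gata6STOP/+* replicate 1. *Plxna4*, which transmits SEMA3A signals with NRP1, was the steadiest gene in controls, at 92.6, 93.2 and 95.9 CPM, and had 88.0, 101.5, 97.7 and 108 CPM in *Gata6STOP/+* pools. These values lay on both sides of the controls (log2 fold change 0.07, 95% interval −0.09 to 0.23; limma adjusted *P*=0.838).

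*Plxnd1*, a plexin of endothelial cells whose loss causes OFT and vessel defects, had 278, 345 and 213 CPM in controls and 286, 218, 313 and 259 CPM in *Gata6STOP/+* pools. The controls spanned the whole range of the *Gata6STOP/+* pools (means 279±65.9 and 269±40.8 CPM; log2 fold change −0.04, 95% interval −0.38 to 0.31; limma adjusted *P*=0.972). Within each genotype the order of the pools was the same as that of the summed endothelial and endocardial markers, of which 8 of 8 were listed, at 843, 936 and 748 CPM in controls and 931, 819, 1010.0 and 874 CPM in *Gata6STOP/+* pools. For *Nrp2* the order was that of the endothelial sum in controls but not in *Gata6STOP/+* pools, where replicate 1 led *Nrp2* and replicate 4 led the sum. The endothelial sums of both genotypes overlapped, and their part in the values of *Plxnd1* and *Nrp2* was not tested.

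**Figure D2:**
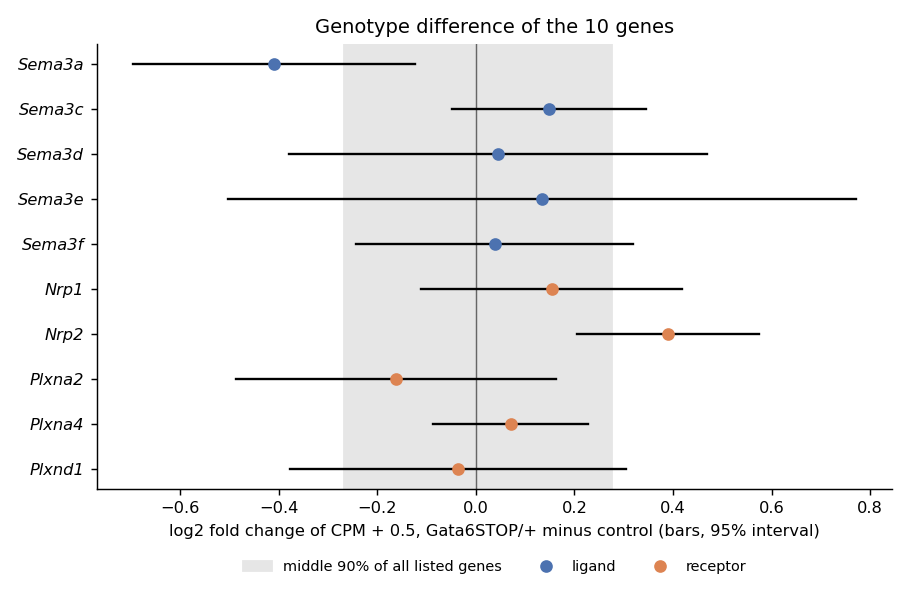
Log2 fold change of CPM + 0.5, *Gata6STOP/+* minus control (x axis), for the 5 ligands (blue) and the 5 receptors (orange), with 95% intervals from limma as bars and the middle 90% of all listed genes (−0.27 to 0.28) as a grey band. *Sema3a* (−0.41) and *Nrp2* (0.39) lie outside the band with intervals that do not reach 0, and the other 8 intervals cross 0.

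Within each genotype, the same pool was often the highest or the lowest for several of the 10 genes. *Gata6STOP/+* replicate 1 was the highest of its group for 7 of the 10 genes and replicate 3 the lowest for 6 of 10. Among controls, replicate 4 was the highest for 6 and replicate 3 the lowest for 5. These counts were not made over all listed genes, and genes read from the same libraries are not independent. *Gata6STOP/+* replicate 1 also had the lowest sum of myocardial markers of all pools, 13779.6 CPM, with 16151 to 17863 CPM in controls, and the part of this in its values was not tested.

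Ratios within a pool were compared as a description, since they do not depend on the scaling between libraries. The ratio of *Nrp2* to *Nrp1* was 0.775, 0.660 and 0.665 in controls and 0.802, 0.916, 0.806 and 0.775 in *Gata6STOP/+* pools. The groups met at control replicate 3 and *Gata6STOP/+* replicate 5, and the means were 0.700±0.0653 and 0.825±0.0624. The ratio of *Sema3a* to *Sema3c* was 0.128, 0.234 and 0.144 in controls and 0.111, 0.113, 0.108 and 0.108 in *Gata6STOP/+* pools. All 4 *Gata6STOP/+* values lay below the 3 controls and close together, and control replicate 4 was again the one far above. *Sema3a* alone overlapped between genotypes, and this ratio combines a lower numerator with a higher denominator. How often ratios of other genes separate the groups was not tested.

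**Figure D3:**
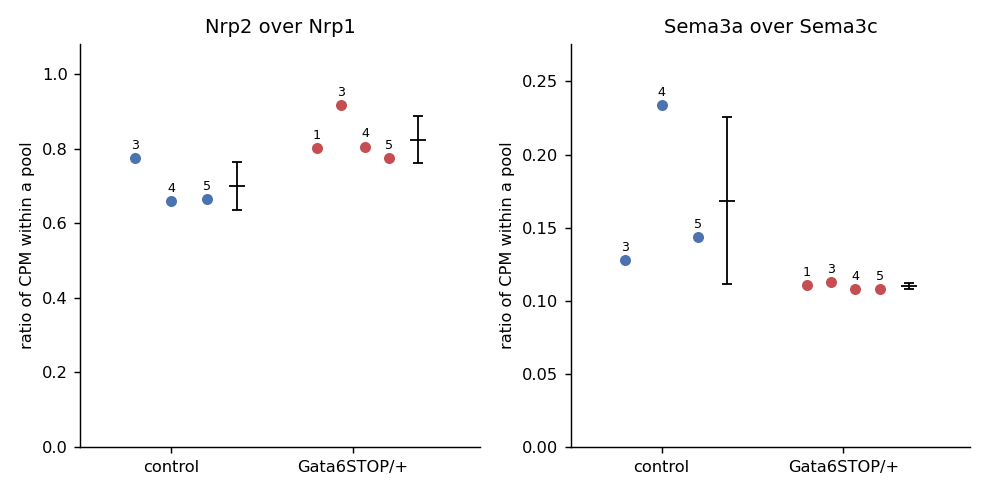
Ratio of CPM values within each pool (y axes, linear from 0) for *Nrp2* over *Nrp1* (left) and *Sema3a* over *Sema3c* (right), with control pools in blue, *Gata6STOP/+* pools in red, replicate numbers beside the points and mean±s.d. as bars. On the left the lowest red point equals the highest blue point at 0.775, and on the right the red points lie between 0.108 and 0.113, below all blue points.

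Summed over the 5 ligands, the level was 298 to 331 CPM in controls and 311 to 365 CPM in *Gata6STOP/+* pools, of which *Sema3c* made up 62.0 to 70.2% and 68.9 to 71.7%. The 5 receptors summed to 543 to 715 CPM and 550.3 to 692 CPM. Both sums overlapped between genotypes.

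To compare levels between genes, CPM were divided by the exonic length of each gene in kilobases (kb). In control pools *Plxnd1* was the most abundant receptor, at 38.2±9.03 CPM per kb, and *Sema3c* the most abundant ligand, at 29.7±3.40 CPM per kb. The ranges of these leading genes overlapped. *Nrp1* (10.9±1.71 CPM per kb) and *Sema3f* (9.53±1.83) followed and overlapped each other, as did *Plxna4* (6.66±0.126) and *Nrp2* (6.28±0.593) after them. *Plxna2* (3.75±0.288) lay between these and the next genes, without overlap with either. *Sema3a* (2.51±0.560) and *Sema3d* (2.24±0.585) overlapped, and *Sema3e* (0.113±0.0293) was the lowest of the 10 in each pool. In *Gata6STOP/+* pools the order differed for *Nrp2*, at 8.25±0.735 CPM per kb above *Plxna4* (7.01±0.603), and for *Sema3a*, at 1.86±0.164 below *Sema3d* (2.30±0.493). The ranges of *Nrp2* and *Plxna4*, and of *Sema3a* and *Sema3d*, still overlapped. Dividing by the length of the longest coding transcript kept *Plxnd1*, *Sema3c*, *Nrp1* and *Sema3f* as the leading genes and placed *Sema3a* at rank 6 in place of 8. By that length, control *Nrp2* (11.7 CPM per kb) was already above *Plxna4* (7.29), and control *Sema3a* (8.53) above *Sema3d* (3.06). Both changes of order thus depended on the use of exonic length.

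**Figure D4:**
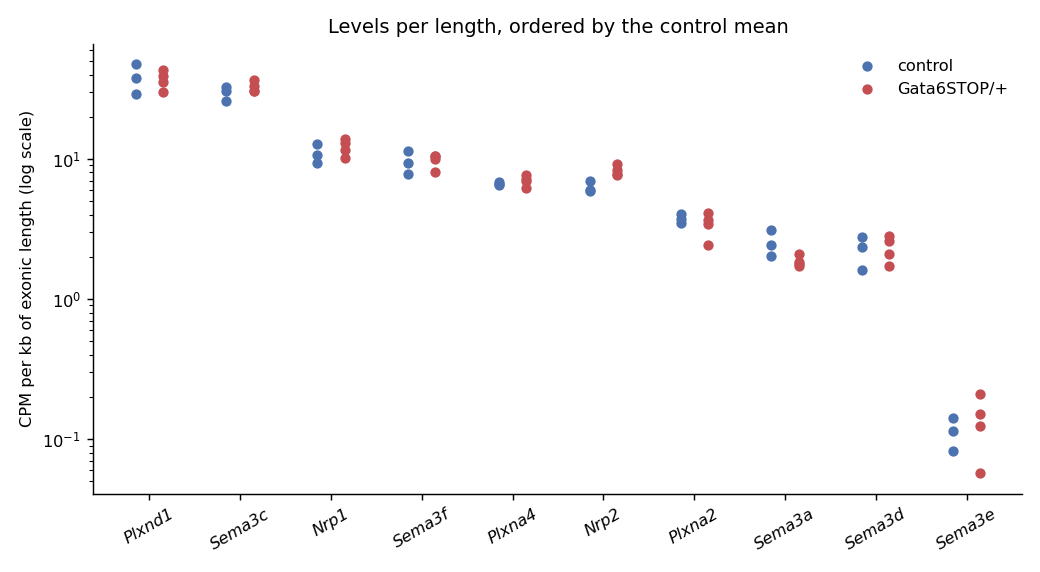
Level of the 10 genes in CPM per kb of exonic length (y axis, log scale) in control (blue) and *Gata6STOP/+* (red) pools, 1 point per pool, in the order of the control mean. Control means run from 38.2 for *Plxnd1* to 0.113 for *Sema3e*, and *Nrp2* shows the red points above the blue ones.

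The rest of the pathway was read from 6 gene lists with 65 genes, of which 64 were listed (*Chl1* was not analysed here). In limma 0 of 64 passed the adjusted threshold, 8 had an unadjusted *P* under 0.05 (3 higher and 5 lower; 8.06% of all genes, 4.17% higher and 3.88% lower), and edgeR and DESeq2 called 0. The groups did not overlap for 5 of the 64 (2 higher and 3 lower), against 8.47% of all genes. The median log2 fold change of the 64 genes was −0.01. The class 3 semaphorins outside the 10 genes, *Sema3b* and *Sema3g*, had log2 fold changes of −0.16 (21.0±2.90 and 18.7±1.81 CPM; limma adjusted *P*=0.766) and 0.30 (13.1±1.595 and 16.6±3.84 CPM; adjusted *P*=0.709), with overlapping groups.

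None of the 6 other plexins had an unadjusted *P* under 0.05. *Plxna1* (124 and 125 CPM, control and *Gata6STOP/+* mean), *Plxna3* (43.8 and 40.8 CPM) and *Plxnb2* (371 and 366 CPM) had log2 fold changes of −0.0011, −0.10 and −0.02. *Plxnb1* (97.6 and 106 CPM), *Plxnc1* (34.0 and 38.4 CPM) and *Plxnb3* (1.81 and 1.08 CPM) had 0.11, 0.18 and −0.44, and the groups overlapped for all 6. Over all 9 plexins listed, 3 log2 fold changes were positive, and over all 20 semaphorins, 11.

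In each of the other lists, the genes with the smallest unadjusted *P* did not pass adjustment either. Of 13 semaphorins of other classes, *Sema7a*, a membrane-anchored ligand of plexin C1, had 9.88±1.48 CPM in controls and 14.2±1.97 CPM in *Gata6STOP/+* pools (log2 fold change 0.50, limma adjusted *P*=0.333), and *Sema6b*, a transmembrane ligand of A-type plexins, had 2.34±0.877 and 1.203±0.288 CPM (−0.71, adjusted *P*=0.442). For both, the groups did not overlap. *Sema6b* rested on only 26 to 70 reads per pool, and its controls were at 3.36 (replicate 3), 1.83 and 1.85 CPM. Among the 6 co-receptors, *Flt4*, the VEGF-C receptor with which NRP2 associates, had 26.5±2.84 and 20.3±1.56 CPM (−0.37, adjusted *P*=0.289). *L1cam*, a cell adhesion molecule that takes part in SEMA3A reception with NRP1, had 29.7±11.6 and 18.5±1.74 CPM (−0.61, adjusted *P*=0.428), with control replicate 3 far above the others at 43.1 CPM. The groups did not overlap for *Flt4* and *L1cam* either.

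For VEGF ligands, *Vegfb* had 80.7±4.46 and 69.2±9.29 CPM (−0.23, limma adjusted *P*=0.598) and *Pgf* 6.02±0.705 and 7.10±0.611 CPM (0.22, adjusted *P*=0.694), with overlapping groups. The 32 cytoplasmic effectors had a median of −0.02. *Limk2*, a kinase that inactivates cofilin, had 169±14.4 and 195±8.21 CPM (0.21, adjusted *P*=0.451) in groups that did not overlap, and *Crmp1*, which mediates SEMA3A-induced growth cone collapse, had 39.2±6.74 and 32.0±4.15 CPM (−0.28, adjusted *P*=0.598).

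**Figure D5:**
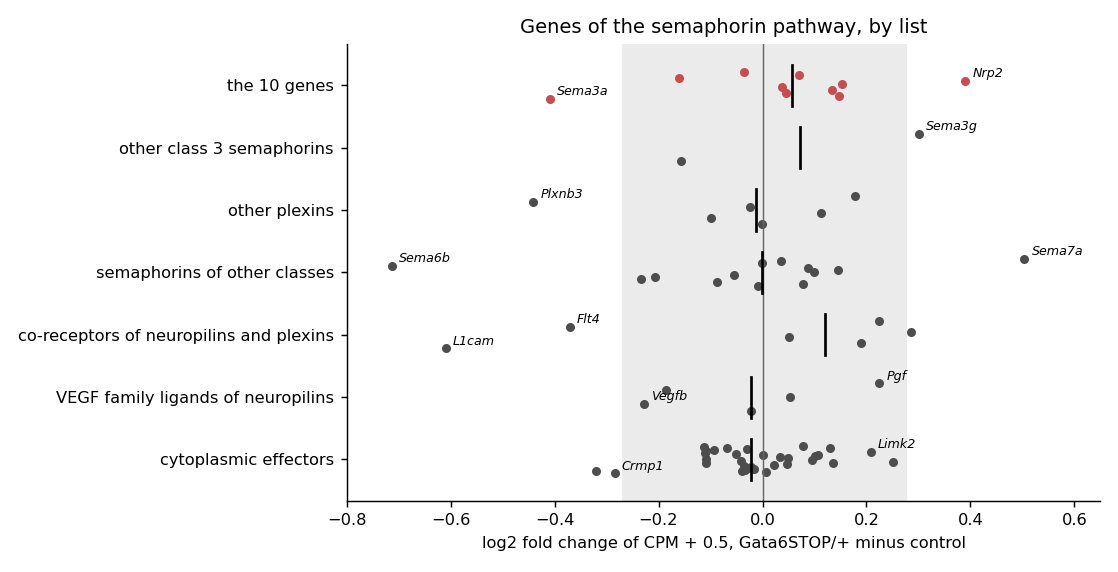
Log2 fold change of CPM + 0.5, *Gata6STOP/+* minus control (x axis), of the 10 genes (red) and of 64 further pathway genes (grey) by list, with a black line at each list's median and the middle 90% of all listed genes as a grey band. List medians lie between −0.02 and 0.12, and *Sema6b* (−0.71) and *L1cam* (−0.61) are the farthest points below 0 and *Sema7a* (0.50) the farthest above.

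The genes whose values over the 7 pools most resembled those of 3 of the 10 genes were found by the Euclidean distance between centred log2(CPM + 0.5) values, among the 11627 genes that averaged 5 CPM or more. For *Nrp2* these were *Cdo1* (distance 0.158), *Atm* (0.171) and *Dennd5b* (0.183), against a median distance of 0.646. For *Sema3c* they were *Zfp286* (0.115), *Tmco6* (0.127) and *Zbtb8a* (0.133), against a median of 0.459. The nearest to *Sema3a* were *Pcdhga4* (0.282), *Ddx58* (0.282) and *Trp53i11* (0.286), against a median of 0.775. None of these 9 genes belongs to the pathway lists, and the distances describe 7 points that share libraries. As the smallest distances found, they lie under the median by construction.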

How the data were processed

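PolyA RNA of OFT pools was sequenced as 60 base single-end reads (NEBNext directional libraries, Illumina NextSeq). The authors trimmed reads with Cutadapt 1.18, quantified genes with RSEM 1.2.3 on GRCm38 (Ensembl), kept genes with 1 CPM in at least 3 samples and normalized by TMM in edgeR 3.32.1. The deposited values are CPM of the TMM-adjusted library; per-pool columns not used here number 0. Whether strand was used in counting is not given in the sources used here. Genotypes and replicate numbers come from the labels.

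CPM were divided by what 1 read is worth, and 100% of values came out whole (tolerance 0.001 of a read). The test was limma 3.58.1 (R 4.3.3; lmFit, eBayes with trend, two-sided) on log2(CPM + 0.5), which understates changes of low genes, over all 7 pools, with Benjamini-Hochberg adjustment over 14732 genes and a threshold of 0.05. EdgeR 4.0.16 and DESeq2 1.42.0 on the recovered reads, a replicate block, other constants, a minimum of 5 CPM, other scaling and leaving out each pool were alternatives. The limma, edgeR and DESeq2 fits were also run on simulated reads with known changes, drawn without effects shared by the genes of a pool. The changes set there were larger than those of *Nrp2* and *Sema3a*. The simulation therefore does not settle which fit is right for these genes. Reads are not independent molecules, so counting errors cover counting only. Of the distinct 60-base stretches in a gene's annotated transcripts, at most 1.19% also occurred in transcripts of another gene (*Plxna2*).

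The 10 genes and all lists were chosen with earlier results of these data known. Named were the 10 genes, *Gata6*, each other class 3 semaphorin and plexin, the 2 genes with the smallest unadjusted *P* in each further list, and the 3 genes most like *Sema3c*, *Sema3a* and *Nrp2*. *Flt1* and single markers of cell types were named outside this rule.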

Additional observations from a re-analysis of the deposited data

How the results depend on the processing

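All 10 genes kept their adjusted *P* above 0.05 under other constants (0.1 and 2), a minimum mean of 5 CPM (which leaves out *Sema3e*), median-of-ratios scaling, edgeR's quasi-likelihood test and the loss of any 1 pool (0 of 10 called in each). EdgeR's likelihood ratio test and DESeq2 each called 1 (*Nrp2*, adjusted *P*=0.0102 in both), and the likelihood ratio test with a replicate block called 1 (*Sema3a*, log2 fold change −0.48, adjusted *P*=0.0498). The alternatives' adjusted *P* ran from 0.0102 to 0.592 for *Nrp2* and from 0.0498 to 0.747 for *Sema3a*. Over all genes, limma's count of 0 became 1 with the constant 0.1, 105 with the likelihood ratio test and 88 with DESeq2. Leaving out 1 pool gave 0 to 13, with 13 without control replicate 4. The cause was not tested.

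Same-numbered pools of both genotypes did not deviate together (correlations −0.0465, −0.266 and −0.0174 over 11627 genes), so the numbers were not taken to pair the pools. *Gata6STOP/+* replicate 1 has no control of its number, so a block takes it out of the comparison, and limma's blocked fold changes of the 10 genes equal those without that pool. The block gave 14 called genes in limma, 13 with the quasi-likelihood test and 118 with the likelihood ratio test, and in the last also called *Gata6* (−0.42, adjusted *P*=0.0164), while *Nrp2* no longer passed (0.33, adjusted *P*=0.0529). The study's own value for *Gata6* was also −0.42, where the likelihood ratio test without the block gave −0.34. Its methods name no block and count 3 pools per genotype, so the model behind its value is not known here. With the block, *Sema3e* changed sign in limma (−0.0498), in the quasi-likelihood test (−0.0806) and in the likelihood ratio test (−0.0822), and *Sema3f* in the quasi-likelihood test (−0.00026).

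Leaving out pools also turned the sign of 4 genes whose intervals include 0. *Sema3d* ran from −0.17 to 0.21 (−0.17, −0.06 and −0.02 without control replicate 3, *Gata6STOP/+* replicate 3 and *Gata6STOP/+* replicate 5). *Sema3e* ran from −0.0498 (without *Gata6STOP/+* replicate 1) to 0.37 (and was −0.0022 without control replicate 3), *Sema3f* from −0.10 to 0.18 (negative without control replicate 5) and *Plxnd1* from −0.22 to 0.13 (0.13 without control replicate 4 and 0.06 without *Gata6STOP/+* replicate 3). Of 186 recomputed fold changes of the 10 genes and *Gata6*, 170 kept direction and side of the threshold.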

Other observations

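*Nrp2* and *Flt4*, whose products form a receptor complex for VEGF-C, differed in opposite directions between genotypes, a pair chosen after the values were seen. *Flt4* had 24.8, 29.8 and 24.9 CPM in controls and 20.1, 18.4, 20.8 and 22.1 CPM in *Gata6STOP/+* pools, so that every *Gata6STOP/+* pool lay below every control pool, where for *Nrp2* each lay above. *Flt1*, a VEGF receptor that traps ligand, had 55.1, 60.5 and 50.2 CPM in controls and 69.9, 58.0, 74.2 and 68.0 CPM in *Gata6STOP/+* pools (log2 fold change 0.29, limma adjusted *P*=0.435), with overlapping groups. Neither passed the adjusted threshold.

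The ratio of *Nrp2* to *Gata6* within a pool, also chosen after the values were seen, was 0.226, 0.320 and 0.243 in controls and 0.409, 0.447, 0.419 and 0.454 in *Gata6STOP/+* pools. The groups did not overlap, and the ratio combines a higher numerator with a lower denominator. *Nrp2* alone already separated the groups, and how often ratios of other genes to *Gata6* do so was not tested.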
